A study of Mus musculus with 9 samples.

Results

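The genes described here are 34 caspases, Bcl2 family members, necroptosis genes and their regulators, chosen by symbol from the 23234 genes listed in every table. RNA came from cultured mouse ILC2s, the innate lymphocytes that secrete IL-5 and IL-13, taken from lymphoid clusters in the fat of C57BL/6 animals of wild type. The 9 RNA sequencing libraries form 3 groups of 3, namely IL-33 with IFN-γ, IL-33 with IL-27, and IL-33 alone, with each cytokine at 10 ng/ml for 48 h. All groups therefore received the alarmin IL-33. IFN-γ is a cytokine of type 1 immune responses, and IL-27 is made mainly by myeloid cells. Whether replicates are separate cultures or mice is not in the labels. The p-values therefore cover only the spread among these libraries, which may be technical. Expression is in FPKM, fragments per kilobase of transcript and per 1000000 mapped fragments. Log2 fold changes are differences of mean log2(FPKM + 1), tested with limma over the 11014 genes whose mean reached 1 FPKM. Genes past a Benjamini-Hochberg adjusted p of 0.05 are said to have risen or fallen. Of the 34 genes, 33 were tested. Pmaip1, whose BH3-only product is known as NOXA, was not, with 0 to 2.5 FPKM over the 9 libraries.

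Cells can die by several routes that share proteins. Death receptors such as Fas recruit the adaptor FADD and caspase-8, which starts apoptosis directly. Mitochondria release cytochrome c when the pore formers BAX and BAK1 are engaged, which BH3-only proteins promote and BCL2-like proteins prevent. When caspase-8 is blocked, RIPK1 and RIPK3 can phosphorylate MLKL, which breaches the plasma membrane in necroptosis. Inflammatory caspases cleave gasdermin D, whose pores cause pyroptosis. Many of these proteins are held inactive until triggered, so transcript levels report neither their activation nor cell death.

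Spacing of the low values puts the libraries at roughly 896861 to 1000000 fragments each, so that 3 fragments in a transcript of 2 kb are worth 1.5 to 1.67 FPKM. This depth is approximate, and floors given here cover counting error only. All 8 ILC2 markers looked up were present, among them Gata3 at 160.7 to 347.6 FPKM. Their sum was 5287 to 8180.1 FPKM with IFN-γ, 11274 to 11476 FPKM with IL-27 and 13971 to 21903 FPKM with IL-33 alone, and Il5, Il13 and Il2ra fell with IFN-γ. Il5, at 1656 to 9222 FPKM, and Il13, at 2511 to 11034 FPKM, made most of this sum. The other ILC2 markers did not pass with IFN-γ without a replicate block. Their log2 fold changes were 0.13 for Gata3, 0.32 for Rora, 0.02 for Klrg1, -0.45 for Il7r and -0.74 for Il1rl1 (limma adjusted p = 0.387, 0.00486 with the block). The 5 NK cell markers, with Gzma at 0 in all libraries and none abundant enough to be tested, summed to 1.45 to 2.8 FPKM with IFN-γ, 0.519 to 0.8 FPKM with IL-27 and 0 to 0.6 FPKM with IL-33 alone. The part of either list in the results was not tested. The 6 fibroblast markers summed to 0.687 to 79.1 FPKM with IFN-γ, 2.88 to 57 FPKM with IL-27 and 0.206 to 30.4 FPKM with IL-33 alone, and the replicate 3 library held the highest value of each group. The 6 libraries of replicates 1 and 2 reached at most 3.46 FPKM. Where leaving out the replicate 3 libraries changes a call, that value is given beside it or with the counts of the blocked fit. Among the 7 macrophage and dendritic cell markers listed, Csf1r was at 0 in all libraries. The list summed to 5.30 to 20.4 FPKM with IFN-γ, 1.37 to 17.6 FPKM with IL-27 and 3.96 to 11 FPKM with IL-33 alone. The 6 T cell markers, with Cd4 at 0, summed to 35.9 to 82.7 FPKM with IFN-γ, 48.6 to 104.7 FPKM with IL-27 and 34 to 82 FPKM with IL-33 alone. Cd3g, at 28.4 to 97.6 FPKM, made most of this sum. Cd8b1 had 1.52 to 7.15 FPKM, and Cd3d, Cd3e and Cd8a reached at most 1.7, 2.51 and 0.349 FPKM. The neutrophil markers S100a8 and S100a9 were at 0 throughout. Irf1, an interferon-induced transcription factor used as a check of the treatments, had at least 435.4 FPKM with IFN-γ, at least 305.6 FPKM with IL-27 and at most 92.8 FPKM with IL-33 alone. Socs3 and Stat3, set as a separate check of IL-27, did not pass with IL-27 in the fit without a replicate block. Socs3 had 46.3, 74.7 and 163.2 FPKM with IL-27 and 30.3, 67.2 and 209.2 FPKM with IL-33 alone. Stat3 had 157.7, 168.0 and 216.1 FPKM against 127.3, 133.8 and 197.7 FPKM. In bulk RNA, more transcript per cell and more cells with the transcript cannot be told apart.

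In IL-33-activated ILC2s, 3 genes rose with IFN-γ, namely Casp1, Mlkl and Fas, and none fell. The background was 2.19% of all tested genes higher and 0.717% lower. With IL-27, Casp1 and Mlkl rose and none fell, against 0.908% higher and 0.118% lower in the background. The 3 risers belong to different routes of death, and the bases before their transcription starts are shown to let a reader see what the genes have in common there. RefSeq promoters (build GRCm38.p6) were matched for 30 of the 34 genes. The 250 bases before the start of each are printed 5′ to 3′ on the gene's strand, with matches to the STAT dimer core TTCNNNGAA (the GAS core, the same on both strands) in capitals. The windows are chr9:5298267-5298516 (plus strand) for Casp1, chr8:111338206-111338455 (minus strand) for Mlkl and chr19:34290409-34290658 (plus strand) for Fas.
Casp1: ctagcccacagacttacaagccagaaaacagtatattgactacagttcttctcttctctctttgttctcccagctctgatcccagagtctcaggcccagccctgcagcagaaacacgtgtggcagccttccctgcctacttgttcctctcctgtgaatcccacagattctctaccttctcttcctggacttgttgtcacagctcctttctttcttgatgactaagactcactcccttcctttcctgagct
Mlkl: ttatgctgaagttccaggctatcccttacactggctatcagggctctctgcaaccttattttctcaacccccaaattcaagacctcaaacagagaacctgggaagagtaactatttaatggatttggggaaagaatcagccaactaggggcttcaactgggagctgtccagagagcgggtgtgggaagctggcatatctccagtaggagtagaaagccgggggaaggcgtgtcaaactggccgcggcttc
Fas: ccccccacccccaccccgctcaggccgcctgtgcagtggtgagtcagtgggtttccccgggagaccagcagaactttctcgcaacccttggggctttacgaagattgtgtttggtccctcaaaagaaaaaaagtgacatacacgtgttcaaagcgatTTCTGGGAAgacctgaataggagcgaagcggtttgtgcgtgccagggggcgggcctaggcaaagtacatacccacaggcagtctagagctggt

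The Fas window holds 1 GAS core, TTCTGGGAA, whose first base is at position -93 from the start, and the Casp1 and Mlkl windows hold none. The core occurs in 7.02% of all 32851 mouse promoter windows of this length. The 30 matched genes have 43 windows, and 2 of these hold the core, 1 of Fas and 1 of the kinase gene Ripk1. The interferon-stimulated response element core, searched on both strands as GAAA, any 2 bases and GAAA again, occurs in 2.98% of all windows and in none of the windows of these genes. A match is a run of letters and does not show binding, and the absence of one says nothing of sites elsewhere.

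Of the inflammatory caspase and pyroptosis genes, Casp1 rose in both comparisons, while Gsdmd and Casp4 did not pass in the fit without a replicate block. Casp1 encodes the protease that matures IL-1β and IL-18 and cleaves gasdermin D (chromosome 9, 5298517 to 5307265 in build mm9). It had 93.4, 115 and 121.5 FPKM with IFN-γ, 101.7, 92.5 and 101.5 FPKM with IL-27, and 41.9, 42.7 and 55.9 FPKM with IL-33 alone. Every treated library lay above every library with IL-33 alone, and the treated groups overlapped each other. The rise with IFN-γ was 2.33-fold (log2 fold change 1.22 ± 0.18 SE, limma adjusted p = 0.00513). It passed in all 9 omissions of a single library and in libraries 1 and 2 alone (adjusted p = 0.0399). The rise with IL-27 was 2.1-fold (log2 fold change 1.07 ± 0.18 SE, limma adjusted p = 0.0207). That call was lost in 6 of the 9 omissions. Omitting a control gave adjusted p = 0.0830 (IL-33 replicate 1) and 0.107 (replicate 2). Omitting IL-27 replicate 1, 2 or 3 gave 0.0901, 0.0699 and 0.0947, and omitting IFN-γ replicate 2, which shares in the estimate of spread, gave 0.0501. The log2 fold change stayed at 1.00 to 1.11 in these, and in libraries 1 and 2 alone the adjusted p was 0.0759.

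Gsdmd encodes gasdermin D, the pore former cleaved by caspase-1 and caspase-11 (chromosome 15, 75692769 to 75697834 in mm9). It had 25.1, 38.3 and 56.1 FPKM with IFN-γ, 36.7, 34.4 and 52.7 FPKM with IL-27, and 12.3, 11.8 and 19.8 FPKM with IL-33 alone. No treated library reached down to the IL-33 values, although replicate 3 was the highest library of each group. The log2 fold change was 1.35 with IFN-γ (limma adjusted p = 0.0551, 0.00252 with the replicate number as a block) and 1.45 with IL-27 (adjusted p = 0.0797, 0.00313 with the block). The equal numbers of the labels went together in the data, as given with the processing, so the block compares libraries within a number. Within numbers 1 to 3 the differences of log2(FPKM + 1) were 0.97, 1.61 and 1.46 with IFN-γ and 1.51, 1.46 and 1.37 with IL-27. Without the replicate 3 libraries the blocked adjusted p was 0.0645 with IFN-γ and 0.0788 with IL-27. Without the block, the Gsdmd difference with IFN-γ passed on leaving out IFN-γ replicate 1 (0.0373) or IL-33 replicate 3 (0.0495), with array weights (0.0155) and with a filter at 5 FPKM (0.0469). With IL-27 it passed with array weights (0.0354).

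Casp4 encodes the mouse caspase-11, which senses intracellular lipopolysaccharide and lies next to Casp1 on chromosome 9 (5308828 to 5336783 in mm9). It had 22.2, 26.8 and 42.6 FPKM with IFN-γ, 22.7, 23.5 and 37.6 FPKM with IL-27, and 17.4, 16.7 and 26.9 FPKM with IL-33 alone. The groups overlapped, and replicate 3 was again the highest in each. The log2 fold changes of 0.55 with IFN-γ (limma adjusted p = 0.446, 0.0326 with the block) and 0.44 with IL-27 (adjusted p = 0.730, 0.103 with the block) did not pass without the block. The ratio of Casp1 to Casp4 FPKM averaged 3.78 ± 0.81 with IFN-γ, 3.71 ± 0.91 with IL-27 and 2.35 ± 0.25 with IL-33 alone (SD, n = 3 each).

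**Figure D1:**
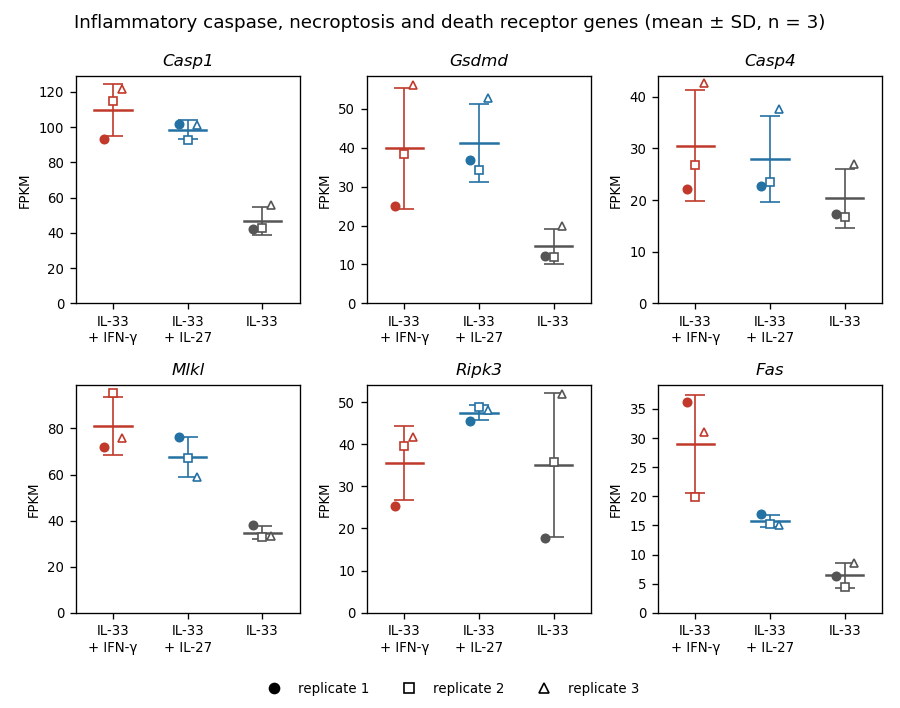
FPKM (vertical axis, from 0) of 6 genes in each library, by treatment, with the mean and SD of 3 libraries; symbols mark the replicate number. Casp1 and Mlkl sit at 59.1 FPKM or more in every treated library and at 55.9 FPKM or less in every library with IL-33 alone, and Fas is highest with IFN-γ.

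Of the necroptosis genes, Mlkl rose and its upstream kinases did not pass. Mlkl encodes the executioner of necroptosis (chromosome 8, 113835697 to 113862077 in mm9). It had 72.2, 95.6 and 75.7 FPKM with IFN-γ, 76.4, 67.2 and 59.1 FPKM with IL-27, and 38.0, 32.9 and 33.5 FPKM with IL-33 alone. The treated libraries stood clear of the controls, and the controls were tight. The rise was 2.28-fold with IFN-γ (log2 fold change 1.19 ± 0.18 SE, limma adjusted p = 0.00564) and 1.91-fold with IL-27 (log2 fold change 0.93 ± 0.18 SE, limma adjusted p = 0.0420). The IFN-γ call held in all 9 single omissions, and the adjusted p was 0.0676 in libraries 1 and 2 alone (0.0549 with the block). The IL-27 call was lost in each of the 9 single omissions of any library, with adjusted p of 0.0570 to 0.171 and log2 fold changes of 0.84 to 1.02, and with 0.166 in libraries 1 and 2 alone.

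Ripk3, which encodes the kinase that activates MLKL, had 25.3, 39.5 and 41.6 FPKM with IFN-γ, 45.4, 48.8 and 48.1 FPKM with IL-27, and 17.7, 35.8 and 51.9 FPKM with IL-33 alone. The control libraries spanned the whole range of the treated ones. Its log2 fold change was 0.11 with IFN-γ (95% interval -0.67 to 0.88, limma adjusted p = 0.931) and 0.55 with IL-27 (-0.23 to 1.32, adjusted p = 0.701). Ripk1, whose kinase stands at the branch between survival, apoptosis and necroptosis, stayed between 12.7 and 20.0 FPKM over all 9 libraries. Its log2 fold change was 0.12 with IFN-γ (95% interval -0.37 to 0.61) and -0.07 with IL-27 (-0.55 to 0.42).

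In death receptor signalling, the receptor rose with IFN-γ and its adaptors did not pass. Fas, whose product binds Fas ligand (chromosome 19, 34365149 to 34402260 in mm9), had 36.2, 19.8 and 31.0 FPKM with IFN-γ, 16.9, 15.3 and 15.0 FPKM with IL-27, and 6.35, 4.36 and 8.6 FPKM with IL-33 alone. The 3 groups formed 3 steps that did not overlap. Its 4.04-fold rise with IFN-γ was the largest log2 fold change of the 33 tested genes (2.01 ± 0.28 SE, limma adjusted p = 0.00409) and held in all 9 single omissions. In libraries 1 and 2 alone the adjusted p was 0.0648 (0.0291 with the block). With IL-27 the log2 fold change was 1.21 ± 0.28 (adjusted p = 0.0978, 0.0166 with the block). Set directly against IL-27, IFN-γ gave a log2 fold change of 0.80 (95% interval 0.18 to 1.43, unadjusted p = 0.0167), which did not pass after adjustment over all genes (limma adjusted p = 1.00, 0.207 with the block). The control values of Fas correspond to roughly 8 to 14 fragments per library, so their counting error is wide. Fasl, which encodes the ligand of Fas, was listed at 0 in all 9 libraries.

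Casp8, the initiator caspase of this route and the third most abundant gene of the 34, had 87.2, 115 and 144 FPKM with IFN-γ, 104.5, 119 and 156 FPKM with IL-27, and 78.1, 84.8 and 103 FPKM with IL-33 alone. The IL-27 libraries lay just above the controls, and those with IFN-γ overlapped them. The log2 fold changes were 0.36 with IFN-γ (limma adjusted p = 0.522, 0.0625 with the block) and 0.50 with IL-27 (adjusted p = 0.537, 0.0320 with the block). Cflar, which encodes the caspase-8 inhibitor c-FLIP, had 46.6, 32.7 and 34.7 FPKM with IFN-γ, 34.7, 35.6 and 37.5 FPKM with IL-27, and 39.3, 26.4 and 30.0 FPKM with IL-33 alone. These overlapped, with log2 fold changes of 0.25 with IFN-γ (95% interval -0.21 to 0.70) and 0.19 with IL-27 (-0.27 to 0.64). Cflar and Casp8 are neighbours on chromosome 1 (58768352 to 58815728 and 58852218 to 58904347 in mm9). The adaptor gene Fadd ranged from 8.09 to 15.4 FPKM and the TNF receptor adaptor gene Tradd from 11 to 23.6 FPKM over all libraries, and neither passed in any comparison.

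**Figure D2:**
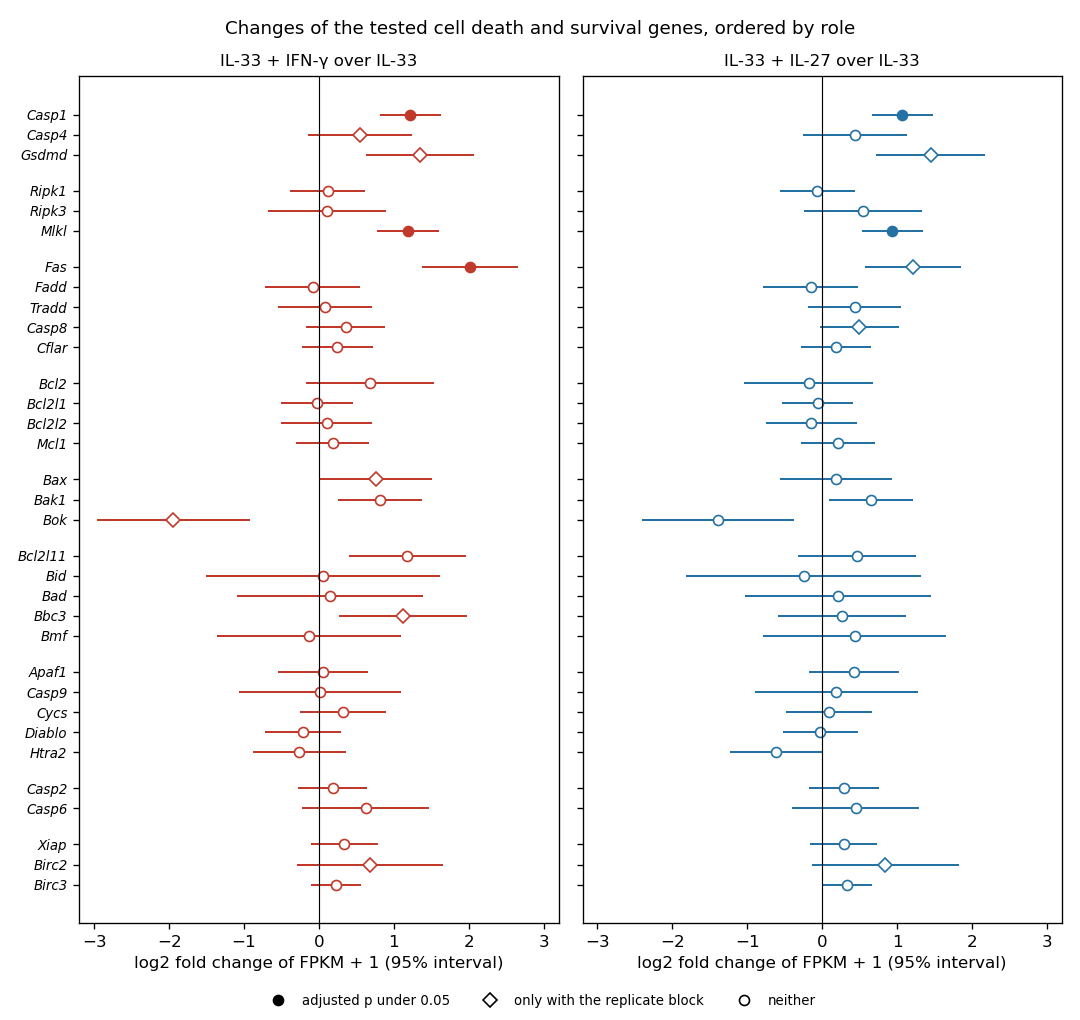
Log2 fold changes of FPKM + 1 (horizontal axis, with limma 95% intervals) for the 33 tested genes, with IFN-γ (left) and IL-27 (right) over IL-33 alone, in blocks by role. Filled circles passed at adjusted p under 0.05, and open diamonds passed with the replicate block only; Bok, listed at 0 in the IFN-γ libraries, has a value set by the pseudocount.

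Among the anti-death Bcl2 genes, none passed in any comparison, with or without the block. Bcl2l1, which encodes BCL-XL and was the most abundant of the 4, had 87.2, 79.1 and 85.9 FPKM with IFN-γ, 102.8, 70.5 and 75.1 FPKM with IL-27, and 110.3, 75.6 and 74.5 FPKM with IL-33 alone. Its log2 fold changes were -0.02 with IFN-γ (95% interval -0.49 to 0.44) and -0.06 with IL-27 (-0.53 to 0.40). Mcl1, a short-lived survival protein gene, had 60.6, 76.6 and 86.2 FPKM with IFN-γ, 61.6, 80.9 and 85.0 FPKM with IL-27, and 52.3, 68.3 and 76.0 FPKM with IL-33 alone. Replicate 1 was the lowest Mcl1 library of each group, the groups overlapped, and the log2 fold changes were 0.18 with IFN-γ (95% interval -0.29 to 0.66) and 0.21 with IL-27 (-0.27 to 0.69). Bcl2 itself had 19.6, 13.8 and 11.4 FPKM with IFN-γ, 11.8, 5.46 and 6.6 FPKM with IL-27, and 15.2, 7.19 and 5.9 FPKM with IL-33 alone. Within each number it was highest with IFN-γ, but the groups overlapped (log2 fold change 0.68 over IL-33 alone, limma adjusted p = 0.445, 0.0617 with the block). Bcl2l2, which encodes BCL-W, stayed between 4 and 8.6 FPKM.

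The pro-death pore formers were abundant and spread widely. Bax had 322, 199.7 and 123.9 FPKM with IFN-γ, 172, 115 and 120.2 FPKM with IL-27, and 148, 95.2 and 114.5 FPKM with IL-33 alone. Replicates 1 and 2 with IFN-γ stood above all other libraries and replicate 3 did not. The log2 fold change with IFN-γ was 0.76 (limma adjusted p = 0.304, 0.0459 with the block), with differences of 1.11, 1.06 and 0.11 within numbers 1 to 3, and 0.18 with IL-27 (adjusted p = 0.920). Bak1 had 56.2, 89.0 and 91.1 FPKM with IFN-γ, 56.2, 72.0 and 79.3 FPKM with IL-27, and 55.4, 38.8 and 37.9 FPKM with IL-33 alone. Here replicates 2 and 3 differed from their controls and replicate 1 hardly did. Its log2 fold change was 0.81 with IFN-γ (limma adjusted p = 0.137, 0.0661 with the block) and 0.65 with IL-27 (adjusted p = 0.405, 0.175 with the block), and neither passed.

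Bok, a less studied member of the same fold, was scarce. It was listed at 0 in all 3 libraries with IFN-γ, at 0, 0.759 and 0.8 FPKM with IL-27, and at 2.48, 5.31 and 1.6 FPKM with IL-33 alone. At this depth 3 fragments of Bok are worth 2.09 to 2.34 FPKM, so the lowest control value is itself under that floor and no fold is given. It passed the expression filter through its level with IL-33. The adjusted p was 0.0517 with IFN-γ (0.0240 with the block) and 0.296 with IL-27. It fell below 0.05 without IL-33 replicate 3 (0.0437) or IL-27 replicate 1 (0.0474).

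Of the BH3-only genes, which couple stress signals to BAX and BAK1, none of the 5 tested passed without the block. Bbc3, which encodes PUMA, had 23.9, 13.8 and 12.6 FPKM with IFN-γ, 11.1, 5.26 and 10.3 FPKM with IL-27, and 7.46, 4.20 and 10.2 FPKM with IL-33 alone. The IFN-γ libraries lay above both other groups. Its log2 fold change was 1.12 over IL-33 (limma adjusted p = 0.186, 0.0373 with the block) and 0.85 over IL-27 (95% interval 0.01 to 1.69, unadjusted p = 0.0474, adjusted p = 1.00). Bcl2l11, which encodes BIM, had 9.18, 4.29 and 4.4 FPKM with IFN-γ, 3.38, 2.65 and 3.1 FPKM with IL-27, and 1.13, 2.25 and 2.6 FPKM with IL-33 alone. These groups did not overlap either, but replicate 1 carried most of the change. The log2 fold change was 1.18 with IFN-γ (adjusted p = 0.123, 0.0724 with the block) and 0.46 with IL-27 (adjusted p = 0.754). Bad had 2.43, 7.55 and 20.2 FPKM with IFN-γ, 10.7, 6.72 and 6.9 FPKM with IL-27, and 8.96, 5.97 and 5.6 FPKM with IL-33 alone, so its IFN-γ libraries spanned the values of both other groups. Bid, which links caspase-8 to mitochondria, ranged from 0.6 to 8.98 FPKM and Bmf from 0.23 to 3.9 FPKM, and neither passed.

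**Figure D3:**
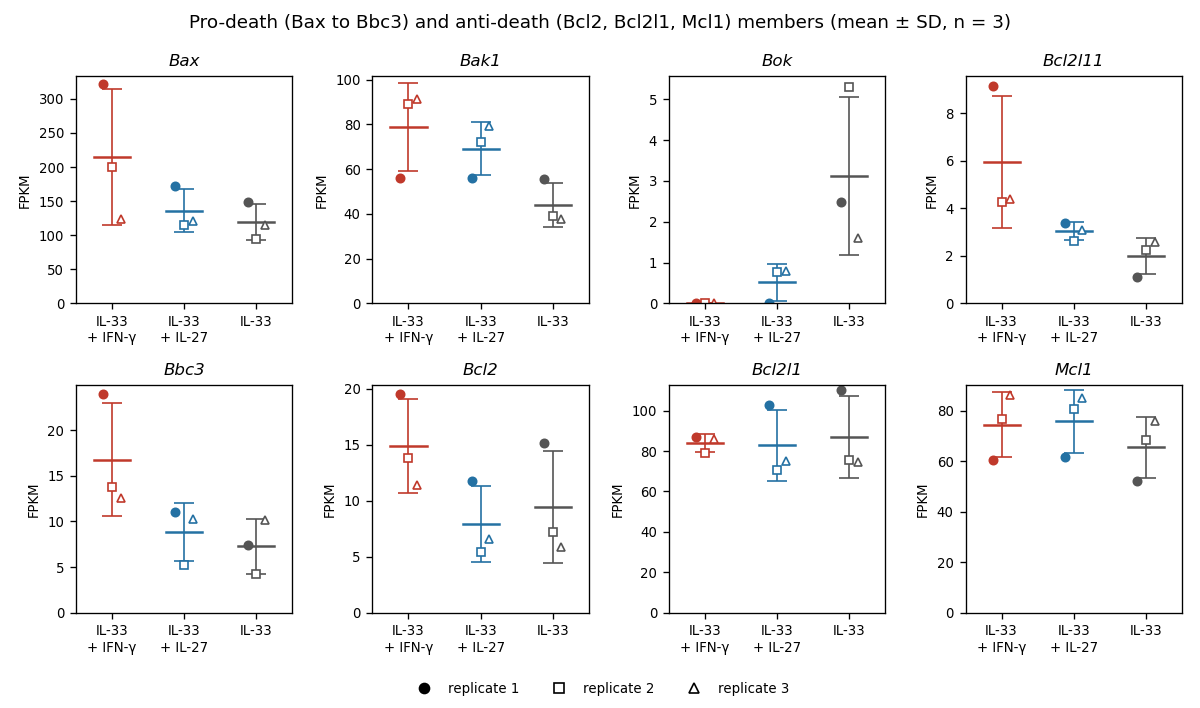
FPKM (vertical axis, from 0) of 8 Bcl2 family genes in each library, by treatment, with the mean and SD of 3 libraries; symbols mark the replicate number. Bax reaches 322 FPKM in IFN-γ replicate 1 but 123.9 FPKM in IFN-γ replicate 3, while Bcl2l1 and Mcl1 overlap in the 3 groups.

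Summed over the family, FPKM being per length, the 4 anti-death genes gave 180.2 ± 10.5 FPKM with IFN-γ, 172 ± 10.6 with IL-27 and 168 ± 14.7 with IL-33 alone (SD, n = 3 each). The 3 pore formers gave 294 ± 81.7 FPKM with IFN-γ, 205 ± 20.9 FPKM with IL-27 and 167 ± 35.2 FPKM with IL-33 alone. The ratio of pore former to anti-death FPKM was 2.19, 1.64 and 1.12 with IFN-γ, 1.26, 1.17 and 1.15 with IL-27, and 1.12, 0.885 and 0.953 with IL-33 alone. Every treated library lay above the highest control, IFN-γ replicate 3 by very little. The ratio of BH3-only to anti-death FPKM was 0.263, 0.168 and 0.222 with IFN-γ, 0.160, 0.138 and 0.161 with IL-27, and 0.141, 0.137 and 0.151 with IL-33 alone. These sums cover genes of the 34 only, so the A1 genes and the BH3-only gene Bik of the wider list are left out. The sums follow their most abundant genes, Bax in particular, and carry no test.

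Genes of the apoptosome and of mitochondrial release did not pass in any comparison. Cycs, which encodes cytochrome c, had 103.7, 154 and 129 FPKM with IFN-γ, 91.2, 131.5 and 106.6 FPKM with IL-27, and 102, 137 and 75.3 FPKM with IL-33 alone, and reads of its processed copies may be mixed in. Apaf1, the scaffold that cytochrome c assembles, had 49.0, 50.8 and 60.0 FPKM with IFN-γ, 54.4, 72.6 and 82.5 FPKM with IL-27, and 34.4, 56.8 and 67.7 FPKM with IL-33 alone. Both genes overlapped between groups. Casp9, the initiator recruited by the apoptosome, ranged from 2.79 to 12.5 FPKM, and Diablo, which encodes an antagonist of the inhibitors of apoptosis, from 16.2 to 29.0 FPKM. Htra2, a mitochondrial protease gene, ranged from 21.7 to 34.6 FPKM with IFN-γ, from 13.9 to 24.4 FPKM with IL-27 and from 27.1 to 38.0 FPKM with IL-33 alone. Its IL-27 libraries lay below the controls (log2 fold change -0.62, unadjusted p = 0.0460, limma adjusted p = 0.507).

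None of the remaining caspases and inhibitors of apoptosis passed without the block. Casp2 had 17.7, 13.3 and 19.0 FPKM with IFN-γ, 17.1, 18 and 18.3 FPKM with IL-27, and 12.5, 14.3 and 16.6 FPKM with IL-33 alone. Casp6, an executioner caspase gene, had 6.46, 9.79 and 10.9 FPKM with IFN-γ, 6.60, 8.19 and 8.5 FPKM with IL-27, and 2.44, 7.44 and 8 FPKM with IL-33 alone. Neither passed in any comparison. Birc3, which encodes cIAP2, a ubiquitin ligase of TNF receptor signalling, had 85.6, 88.5 and 88.3 FPKM with IFN-γ, 95.2, 84.2 and 103.4 FPKM with IL-27, and 75.7, 72.0 and 76.5 FPKM with IL-33 alone. The treated groups did not overlap with the controls and the step was small, with log2 fold changes of 0.23 with IFN-γ (limma adjusted p = 0.522) and 0.33 with IL-27 (adjusted p = 0.517). Its neighbour Birc2, which encodes cIAP1, had 26.5, 30.2 and 52.7 FPKM with IFN-γ, 32.5, 28.7 and 63.3 FPKM with IL-27, and 18, 13.5 and 39.3 FPKM with IL-33 alone. Replicate 3 was the highest Birc2 library in each group, and within every number both treated libraries were above the control. Its log2 fold change was 0.68 with IFN-γ (limma adjusted p = 0.513, 0.0299 with the block) and 0.84 with IL-27 (adjusted p = 0.603, 0.0216 with the block). Xiap, the direct caspase inhibitor gene, ranged from 13.4 to 22.0 FPKM and did not pass.

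With the block, 8 of the 33 genes rose with IFN-γ, against 6.51% of all tested genes. Those added were Gsdmd, Casp4, Bax, Bbc3 and Birc2. The 1 lower call was Bok (4.66% of all tested genes), which rests on about 2 to 8 fragments per control library and passed the filter only through those controls, so nothing is read from it. With IL-27, 6 rose and none fell, against 3.37% and 1.78%, and those added were Gsdmd, Fas, Casp8 and Birc2. In libraries 1 and 2 alone with the block, 4 genes rose with IFN-γ, namely Casp1, Fas, Bax (adjusted p = 0.0173) and Bbc3 (0.0421), and none with IL-27. There the IFN-γ values were 0.183 for Casp4, 0.108 for Birc2 and 0.0585 for Bok, and the IL-27 values were 0.0878 for Fas, 0.197 for Casp8 and 0.131 for Birc2, in adjusted p. Libraries did not overlap between groups for 8 genes higher and 1 lower with IFN-γ (11.9% and 8.65% of all tested genes) and for 10 higher and 2 lower with IL-27 (8.29% and 5.72%). The 1 lower with IFN-γ was Bok, which is also among the 2 lower with IL-27, and nothing is read from it there either. Unadjusted p was under 0.05 for 9 genes with IFN-γ (15.4% of all tested genes) and 8 with IL-27 (9.51%), Bok among them in both. The median log2 fold change of the 33 genes was 0.23 with IFN-γ and 0.29 with IL-27, beside 0.03 and 0.01 over all tested genes.

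**Figure D4:**
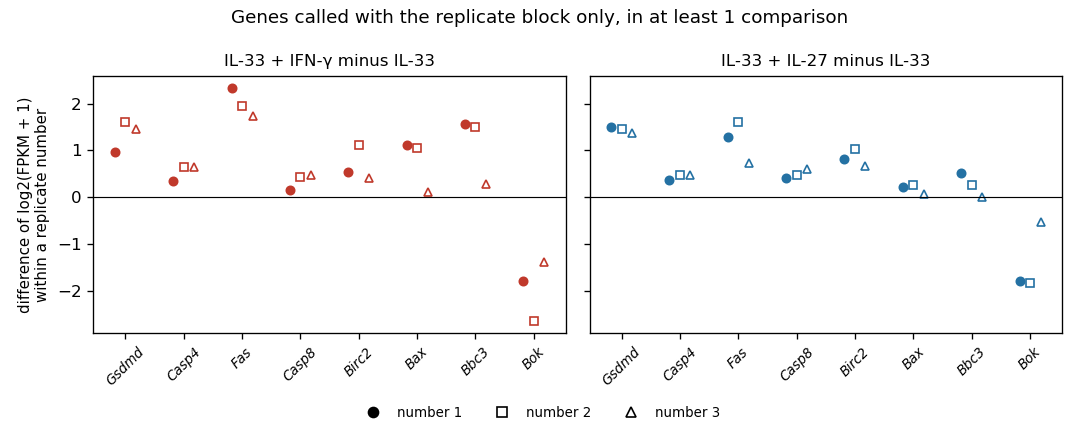
Difference of log2(FPKM + 1) between the treated library and the IL-33 library of the same replicate number (vertical axis), for IFN-γ (left) and IL-27 (right), in 8 genes that passed with the block and not without it in at least 1 comparison. Gsdmd differences are 0.97 to 1.61 with IFN-γ and 1.37 to 1.51 with IL-27. Bok passed the expression filter only through its IL-33 libraries, so nothing is read from its differences.

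Between IFN-γ and IL-27, none of the 33 genes passed in limma, with or without the block, as for the background of 0% higher and 0% lower without it and 0.0545% and 0.127% with it. Unadjusted p was under 0.05 for 3 genes, Fas, Bcl2 and Bbc3, all higher with IFN-γ, against 4.39% of all tested genes. Bcl2 had a log2 fold change of 0.86 there (95% interval 0.02 to 1.71, limma adjusted p = 1.00). Libraries did not overlap for 3 genes higher with IFN-γ, namely Fas, Bbc3 and Bcl2l11, and for 1 lower, Ripk3 (5.50% and 4.03% of all tested genes). For Casp1 the log2 fold change was 0.15 (-0.24 to 0.54), for Mlkl 0.26 (-0.14 to 0.65) and for Gsdmd -0.10 (-0.81 to 0.61), intervals that leave room for differences of either sign. The comparisons with IL-33 share the same 3 control libraries, so the changes in one are not independent of those in the other.

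Other genes of these routes were read from a list of 58, of which 46 were tested. With IFN-γ, 4 rose and none fell in limma, against 2.19% and 0.717% of all tested genes, and unadjusted p was under 0.05 for 11 (15.4%). With IL-27, 2 rose and none fell, against 0.908% and 0.118%, and unadjusted p was under 0.05 for 9 (9.51%). With the block, 7 rose and 2 fell with IFN-γ (6.51% and 4.66% of all tested genes) and 3 rose with IL-27 (3.37%). Between IFN-γ and IL-27 none passed in limma in either fit, with unadjusted p under 0.05 for 4 (4.39%). Zbp1, a nucleic acid sensor that can activate RIPK3, had 194, 290.1 and 459.8 FPKM with IFN-γ, 207, 282 and 372 FPKM with IL-27, and 12.9, 19.3 and 39.9 FPKM with IL-33 alone. The treated libraries stood far above all controls, and Zbp1 rose in both comparisons (log2 fold change 3.71 with IFN-γ, limma adjusted p = 0.00171, and 3.63 with IL-27, adjusted p = 0.00313).

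Pycard, which encodes the inflammasome adaptor ASC, had 56.0, 52.7 and 40.2 FPKM with IFN-γ, 27.2, 34.7 and 31.9 FPKM with IL-27, and 17.4, 20.7 and 23.9 FPKM with IL-33 alone. It rose with IFN-γ (log2 fold change 1.22, adjusted p = 0.0101, 0.0557 without IFN-γ replicate 2) and did not pass with IL-27 (0.58, adjusted p = 0.343). Cyld, a deubiquitinase that promotes RIPK1-dependent death, rose with IFN-γ to 37.2 ± 3.39 FPKM, against 18.5 ± 3.87 FPKM with IL-33 alone (SD, n = 3; log2 fold change 0.98, limma adjusted p = 0.0396). The Cyld call was lost in 7 of the 9 single omissions. Omitting IFN-γ replicate 1, 2 or 3 gave adjusted p = 0.132, 0.0921 and 0.128, omitting IL-27 replicate 1 or 2 gave 0.0627 and 0.0610, and leaving out control replicate 1 or 2 gave 0.116 and 0.0976. In libraries 1 and 2 alone the adjusted p was 0.110. Nlrp3, an inflammasome sensor gene, had 1.59, 2.96 and 5.6 FPKM with IFN-γ, 3.24, 7.57 and 4.5 FPKM with IL-27, and 16.0, 8.29 and 10.8 FPKM with IL-33 alone (IFN-γ adjusted p = 0.0746, 0.0475 with the block). The caspase-1 substrate gene Il1b was listed at 0 in all libraries, and Il18 in all but IL-27 replicate 1, where it had 1.56 FPKM. Bik, a BH3-only gene, had 31.4, 20.4 and 30.2 FPKM with IFN-γ, 26.5, 15.1 and 22.1 FPKM with IL-27, and 8.26, 16.4 and 9.5 FPKM with IL-33 alone. It did not pass with IFN-γ without the block (log2 fold change 1.23, limma adjusted p = 0.0673, 0.0455 with the block).

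Library preparation did not mark strand, and exons of 9 of the 34 genes overlap a gene on the other strand in the annotation used here, namely Ripk1, Fadd, Bcl2, Bak1, Bid, Bad, Casp9, Diablo and Htra2. For these, reads of the partner cannot be told apart.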

How the data were processed

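RNA was sequenced from 9 libraries made with a TruSeq RNA v2 kit, per the labels' protocols. The deposited tables hold 1 FPKM value per gene, which the authors made on build mm9; the submitters' processing notes name Cufflinks 2.1.1, TopHat2 2.0.8 and Bowtie2 2.1.0, and their roles, parameters and annotation are not given in the sources used here. FPKM is inferred as the unit from Cufflinks and the values. Replicate 3 tables hold 1 decimal. Log2(FPKM + 1) was fitted with limma 3.58.1 (intensity trend, two-sided, all 3 groups, no covariate) in R 4.3.3 for 11014 genes (mean 1 FPKM or more), adjusted by Benjamini-Hochberg within each comparison. The fit was tested on simulated data. Figures were drawn with matplotlib 3.10.9.

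Deviations from group means correlated at 0.128 to 0.367 between libraries of equal number (9 pairs) and at -0.298 to -0.0251 between others (18 pairs). Deviations within a group cancel out, so positive values for equal numbers make the others negative on balance. The negative range is therefore not separate evidence of pairing. Sequencing identifiers in the table headers are also consecutive for each number. Equal numbers were therefore treated as pairs in the blocked fit.

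Depth was estimated from steps of low values in 3728 genes of GENCODE vM1 (mm9), which also gave positions. The 34 genes and the pathway list were chosen with earlier results of these data known. Values per library are given for Casp1, Mlkl, Fas, genes past the threshold with or without the block, and the 2 most abundant of each role, and pathway genes were named where past the threshold, except for items that are not reported here. Nlrp3, Il1b, Il18, Fasl, Bcl2a1a, Bcl2a1b, Bcl2a1d and Bik, and the values per library of Bcl2 and Bcl2l11, were added after their values were seen.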

Additional observations from a re-analysis of the deposited data

How the results depend on the processing

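No direction reversed among genes called with or without the block. Among those called in neither, the sign turned under at least 1 alternative for 11 of the 33 genes with IFN-γ, 10 with IL-27 and 13 between both, all with log2 fold changes of at most 0.31 in size, Ripk1, Ripk3 and Bcl2l1 among them with IFN-γ. With IFN-γ, 3 of the 34 genes rose; the replicate block gave 8 and libraries 1 and 2 alone, chosen after seeing the data, gave 1 (4 with the block, without Mlkl), while single omissions gave 3 to 4 and array weights or a filter at 5 FPKM 4, with Gsdmd. None fell; 1 fell (Bok) with the block, no filter, quantile normalization, upper quartile scaling, scaling without small RNA features, no intensity trend or array weights, and 0 to 1 in single omissions. With IL-27, 2 rose; the block gave 6, array weights 3, with Gsdmd, scaling without small RNA features 1, and no intensity trend, only the 2 groups compared, and libraries 1 and 2 alone, without or with the block, 0, with 0 to 1 in single omissions. Of the wider list, 4 rose and none fell with IFN-γ, against 7 and 2 with the block and 2 to 5 higher in single omissions. With IL-27, 2 of that list rose, against 1 with a pseudocount of 5, no filter, upper quartile scaling, scaling without small RNA features, no intensity trend, only the 2 groups compared, or libraries 1 and 2 alone without or with the block, and 1 to 2 in single omissions. The cause of these shifts was not tested. Over all genes the block called 717 higher and 513 lower with IFN-γ, against 241 and 79 without it (single omissions 130 to 229 and 27 to 70, lowest without IFN-γ replicate 2), and 371 and 196 with IL-27, against 100 and 13 (38 to 109 and 4 to 13, with 38 and 4 without IL-27 replicate 3). The background shares move with these counts. The 2 groups alone gave 154 and 33 with IFN-γ and 54 and 9 with IL-27, and array weights 139 and 27 with IL-27. Between IFN-γ and IL-27 the block called 6 higher and 14 lower, against 0 and 0. Of the 34 genes, the block changed only the calls given in the report. The depth of at most 1000000 fragments a library limits scarce genes such as Bok, Bmf, Bid and Pmaip1, where single fragments move a value.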
